A study of Mus musculus with 27 samples.

Results

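ATF4 is the transcription factor at the centre of the amino acid stress response, and its gene was followed here together with 9 genes of the same program, Ddit3, Asns, Trib3, Chac1, Sesn2, Psat1, Phgdh, Slc7a11 and Ddit4. These 10 genes, of 54752 in the count tables, were taken by name for their known place in this response. The tables came from CT26 tumors, CT26 being a transplantable mouse colon carcinoma line. Its cells carried a retroviral guide RNA against Mettl3 (Mettl3 KO), against Mettl14 (Mettl14 KO) or a control guide (control KO), and they were placed under the flank skin of BALB/c mice. Mettl3 and Mettl14 form the writer complex of the N6-methyladenosine mark on mRNA, and the series asked which genes differ between depleted and control tumors under antibody treatment against PD-1, a checkpoint receptor of T cells. The antibody dose in the labels was 200 µg, or 10 mg/kg, between day 11 and day 23. The protocols in the labels also list an antibody against CTLA-4 and an isotype control, and only the design text ties these tumors to the anti-PD-1 arm.

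RNA-seq gave 5 libraries of each group, 15 in all, and 12 samples of RNA pulled down for the mark or of its input were not analysed here. Whole tumors were used, so host cells are in every library. In such bulk RNA, fewer cells of a type and less RNA per cell cannot be told apart. The labels number the samples without tying them to mice, so each p-value measures only the spread between these samples.

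When amino acids run short or proteins misfold, stress kinases phosphorylate the translation factor eIF2alpha, bulk protein synthesis slows, and the Atf4 mRNA is translated more because of short reading frames ahead of its coding sequence. ATF4 protein then binds composite sites in other genes, often with a C/EBP protein as partner, and turns on amino acid uptake and synthesis, tRNA charging, glutathione-related genes and brakes on mTORC1, a kinase complex that drives growth. Atf4 mRNA is therefore only a partial readout of ATF4 protein, and the target genes report on the program as well. Tumor cells with poor blood supply commonly use this program to keep serine, asparagine and cystine available.

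The motif that ATF4 binds is shown first. The 300-base promoters of the 10 genes, 11 in all with 2 for Psat1, were searched on both strands for TGATGNAA, the core of the composite C/EBP-ATF site. They ran from 250 bases before to 50 bases after the transcript start in RefSeq (GRCm38.p6). TGATGNAA was found in 4 of the 11 promoters, those of 4 of the 10 genes, and in 3.97% of all 32851 promoters of that length. In the windows of 30 bases that follow, written 5′ to 3′ on the strand of the gene, capitals mark the match. A match on the other strand reads TTNCATCA, and positions count from the transcript start, which is 1.
Asns, chr6:7693214-7693243, minus strand, position -23: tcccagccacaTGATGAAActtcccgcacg
Chac1, chr2:119351038-119351067, plus strand, position -193: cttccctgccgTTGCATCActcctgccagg
Slc7a11, chr3:50443661-50443690, minus strand, position -66: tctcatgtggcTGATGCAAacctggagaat
Slc7a11, chr3:50443642-50443671, minus strand, position -47: acctggagaatTTGCATCAtcatgcagccc
Trib3, chr2:152344028-152344057, minus strand, position 15: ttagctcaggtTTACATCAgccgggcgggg
Slc7a11 was the gene with a pair of matches, 1 on each strand. The matches of Asns and Trib3 lay close to the transcript start, and that of Chac1 lay far upstream. No promoter of the 10 genes held TGACGTCA, the site of cyclic AMP responsive factors, which stood in 1.79% of all promoters. The antioxidant site TGACNNNGC stood in 3 of the 11 promoters, those of Asns, Phgdh and Sesn2, and in 12.4% of all promoters. None of the matches listed overlapped a match of another motif searched. A match is a run of letters, and binding was not measured.

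Libraries held 4354273 to 9332032 reads on genes in Mettl3 KO, 6452364 to 17022057 in Mettl14 KO and 5520340 to 20978633 in control KO tumors. Mitochondrial reads made up 1.41% to 2.64% in Mettl3 KO, 3.06% to 5.41% in Mettl14 KO and 3.53% to 8.85% in control KO libraries. Every Mettl3 KO library thus had a lower mitochondrial share than any library of the other groups. The part of depth and of mitochondrial reads in the group differences was not tested. The unit of the levels is CPM, in which the count of each gene is divided by the depth of its library, TMM-scaled over the 15 libraries. The share of uniquely aligned reads that fell outside genes was 60.2% to 78.0% in Mettl3 KO, 53.6% to 65.9% in Mettl14 KO and 44.3% to 78.6% in control KO tumors. Control KO replicate 1, at 78.6%, stood apart from the other controls, and several results are given with and without it. The Mettl3 mRNA averaged 13.8 ± 1.45 CPM over the 5 libraries of Mettl3 KO tumors, against 19.5 ± 3.59 CPM over the 5 of control KO tumors (SD), and its difference of -0.56 on the log2 scale (SE 0.15) had an edgeR adjusted p of 0.0545. The Mettl14 mRNA averaged 61.6 ± 12.4 CPM over the 5 libraries of Mettl14 KO tumors, against 69.5 ± 11.7 CPM over the 5 of control KO tumors (SD), and its difference of -0.21 (SE 0.17) had an adjusted p of 0.735. A guide-induced edit need not lower the mRNA, and host cells carry intact copies of both genes, so these levels do not check the knockouts fully. Of the 5 epithelial markers the keratin Krt20 was the most abundant, with 57.7 ± 27.3 CPM in Mettl3 KO and 103 ± 35.0 CPM in Mettl14 KO, against 187 ± 23.7 CPM in control KO tumors (SD, n = 5 each), and no marker gene of the 10 cell types checked was at 0 in a group.

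All 10 genes had lower fitted levels in Mettl3 KO than in control KO tumors, by log2 fold changes of -0.35 to -1.11, but none passed the test. Of all genes tested, 55.1% had a log2 fold change below 0. Across all genes, edgeR's quasi-likelihood test called 266 of 21427 (1.24%) at a Benjamini-Hochberg adjusted p under 0.05, and 0 of the 10 were among them. Of the 10, 6 had an unadjusted p under 0.05, as had 6918 of the 21427 genes, and DESeq2 called 3, Asns, Trib3 and Phgdh, where it called 12.6% of all genes. The median log2 fold change was -0.70 over the 10 genes and -0.14 over all genes tested. Abundant genes as a whole were lower in Mettl3 KO libraries, so each gene was also set against the median of genes of like abundance. On that scale the median of the 10 was -0.27, and 9 of the 10 were below 0.

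**Figure D1:**
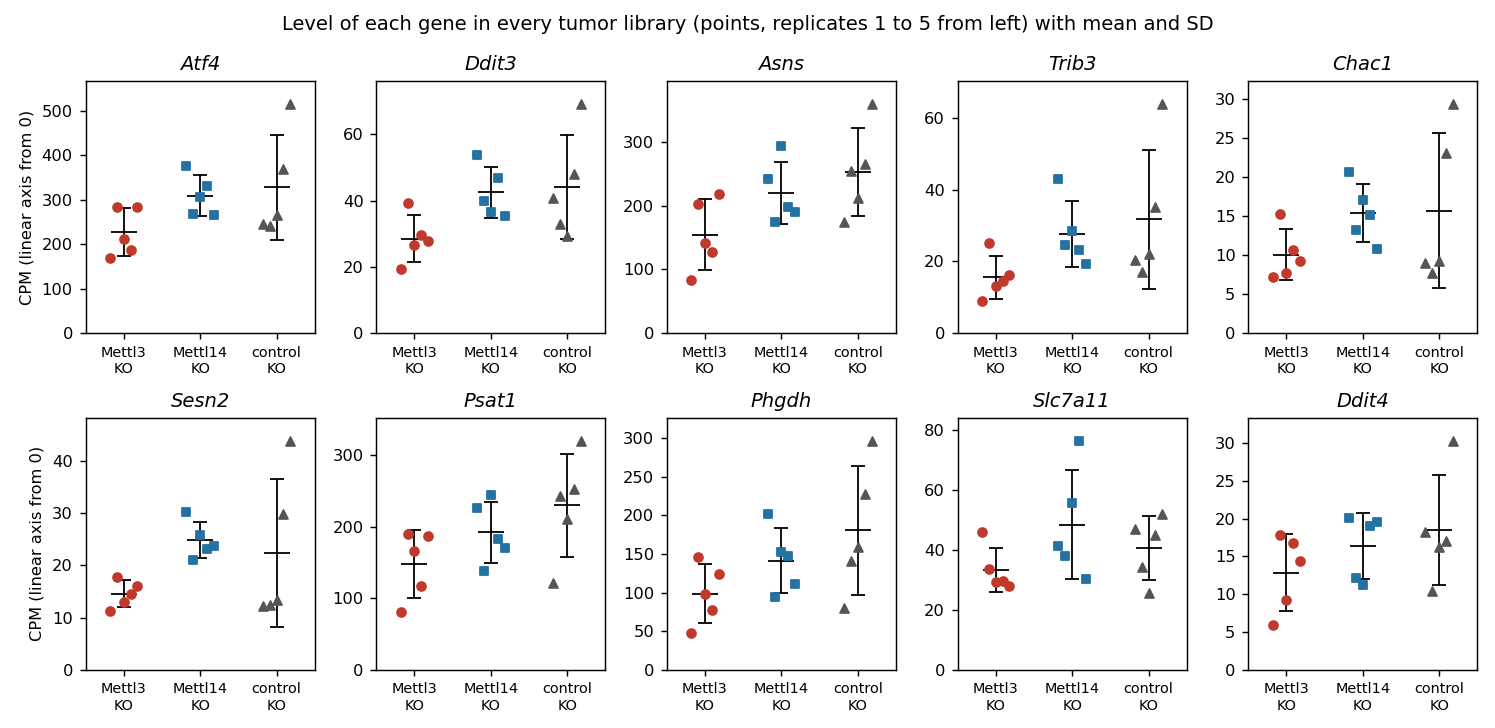
Level of each of the 10 genes in CPM (vertical axes, linear from 0) in each tumor library, with replicates 1 to 5 from left to right within a group, and horizontal bars for the mean and its SD over 5 libraries. Control KO replicates 4 and 5 stand above the other controls in most panels, and Mettl3 KO libraries lie low but overlap the controls in every panel.

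The first group of genes holds the regulators. Atf4 (ENSMUSG00000042406, chromosome 15, 80255184 to 80257541, plus strand, mm10) stood at 168, 285, 212, 187 and 284 CPM in Mettl3 KO and 376, 268, 307, 330.4 and 267 CPM in Mettl14 KO, against 246, 241, 267, 370.3 and 516 CPM in control KO tumors, in the order of the replicate numbers. Thus 3 Mettl3 KO libraries lay below every control, the other 2 lay among the controls, and the Mettl14 KO libraries fell within the range of the controls. The log2 fold change of Atf4 was -0.61 (edgeR adjusted p = 0.117, SE 0.25) in Mettl3 KO and -0.12 (edgeR adjusted p = 0.953, SE 0.21) in Mettl14 KO against control KO tumors. Genes as abundant as Atf4 had a median of -0.61 in the Mettl3 KO comparison, so Atf4 did not stand apart from them.

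Ddit3 encodes CHOP, a transcription factor that ATF4 induces and that turns a lasting stress towards cell death. Ddit3 (ENSMUSG00000025408, chromosome 10, 127290774 to 127296288, plus strand) stood at 19.3, 39.2, 26.6, 29.5 and 27.9 CPM in Mettl3 KO and 53.8, 39.9, 36.6, 46.8 and 35.4 CPM in Mettl14 KO, against 40.9, 32.8, 29.4, 48.2 and 69.2 CPM in control KO tumors. In Mettl3 KO tumors 3 of the 5 libraries lay below every control, and replicate 2 was the high one. Ddit3 differed from control KO tumors by a log2 fold change of -0.70 (edgeR adjusted p = 0.0883, SE 0.25) in Mettl3 KO and -0.10 (edgeR adjusted p = 0.975, SE 0.22) in Mettl14 KO tumors. Its exons share 10.9% of their bases with 3 other gene models, among them the opposite-strand gene Mars, and since the strand setting of the counting is not given, its counts are less certain than those of the other 9 genes.

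Trib3 encodes a pseudokinase that ATF4 and CHOP induce and that feeds back to restrain ATF4. Trib3 (ENSMUSG00000032715, chromosome 2, 152337422 to 152344032, minus strand) stood at 8.96, 25.1, 13.0, 14.5 and 16.3 CPM in Mettl3 KO and 43.0, 24.6, 28.5, 23.1 and 19.3 CPM in Mettl14 KO, against 20.3, 17.0, 22.0, 35.2 and 64.0 CPM in control KO tumors. Of the Mettl3 KO libraries all but replicate 2 lay below the lowest control, while every Mettl14 KO library lay above it, and the highest control lay far above the other controls. Its log2 fold change in Mettl3 KO tumors, -1.11 (SE 0.37, 95% interval -1.93 to -0.30, edgeR adjusted p = 0.0765), was the lowest of the 10, and it stood 0.70 on the log2 scale below genes of like abundance. In Mettl14 KO tumors the log2 fold change of Trib3 was -0.24 (edgeR adjusted p = 0.928, SE 0.34).

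The second group makes amino acids. Asns, asparagine synthetase, is a classical ATF4 target (ENSMUSG00000029752, chromosome 6, 7675169 to 7693254, minus strand). It stood at 83.0, 203, 141, 127 and 219 CPM in Mettl3 KO and 243, 175, 294, 199 and 191 CPM in Mettl14 KO, against 174, 254, 212, 265 and 359.9 CPM in control KO tumors. Again 3 Mettl3 KO libraries lay below every control, while replicates 2 and 5 reached the lower controls. Asns differed from control KO tumors by a log2 fold change of -0.79 (edgeR adjusted p = 0.0706, SE 0.26) in Mettl3 KO and -0.24 (edgeR adjusted p = 0.749, SE 0.19) in Mettl14 KO tumors.

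Phgdh and Psat1 carry out the first and second steps of serine synthesis from glycolysis. Phgdh (ENSMUSG00000053398, chromosome 3, 98313170 to 98339990, minus strand) stood at 47.3, 146, 98.1, 77.7 and 124 CPM in Mettl3 KO and 202, 94.8, 152, 148 and 110.5 CPM in Mettl14 KO, against 79.6, 141, 159.6, 228 and 297 CPM in control KO tumors. Psat1 (ENSMUSG00000024640, chromosome 19, 15904678 to 15947337, minus strand) stood at 80.2, 190.1, 166, 118 and 187 CPM in Mettl3 KO and 226, 138, 244, 182 and 171 CPM in Mettl14 KO, against 122, 243, 211, 253 and 320.4 CPM in control KO tumors. For both enzymes 2 Mettl3 KO libraries, replicates 1 and 4, lay below every control, and control KO replicate 1 was the lowest control. The log2 fold change of Phgdh was -0.96 (edgeR adjusted p = 0.0890, SE 0.34) in Mettl3 KO and -0.39 (edgeR adjusted p = 0.718, SE 0.30) in Mettl14 KO tumors. For Psat1 it was -0.70 (edgeR adjusted p = 0.101, SE 0.27) in Mettl3 KO and -0.29 (edgeR adjusted p = 0.714, SE 0.22) in Mettl14 KO tumors.

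The third group acts on cystine and glutathione. Slc7a11 is the transport subunit of the cystine-glutamate exchanger and also a target of the antioxidant factor NRF2, and Chac1 is an enzyme that breaks down glutathione. Slc7a11 (ENSMUSG00000027737, chromosome 3, 49892526 to 50443614, minus strand) stood at 46.0, 33.8, 29.4, 29.5 and 28.1 CPM in Mettl3 KO and 41.2, 38.1, 55.6, 76.5 and 30.4 CPM in Mettl14 KO, against 46.9, 34.3, 25.6, 45.0 and 51.9 CPM in control KO tumors. No Mettl3 KO library lay below every control, and 2 Mettl14 KO libraries lay above every control. The log2 fold change of Slc7a11 was -0.35 (edgeR adjusted p = 0.269, SE 0.23) in Mettl3 KO and 0.19 (edgeR adjusted p = 0.914, SE 0.26) in Mettl14 KO tumors. Among the 10 genes it alone stood above genes of like abundance in the Mettl3 KO comparison, by 0.10 on the log2 scale. Chac1 (ENSMUSG00000027313, chromosome 2, 119351229 to 119354381, plus strand) stood at 7.12, 15.3, 7.72, 10.7 and 9.19 CPM in Mettl3 KO and 20.6, 13.3, 17.0, 15.1 and 10.8 CPM in Mettl14 KO, against 8.92, 7.74, 9.26, 23.1 and 29.4 CPM in control KO tumors. The controls split widely, with replicates 4 and 5 above all Mettl14 KO libraries and the other 3 among the Mettl3 KO libraries. Chac1 had a log2 fold change of -0.73 (edgeR adjusted p = 0.204, SE 0.39) in Mettl3 KO and -0.08 (edgeR adjusted p = 0.992, SE 0.36) in Mettl14 KO tumors.

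The fourth group restrains mTORC1. Sesn2 encodes Sestrin2, a leucine sensor that acts on the GATOR complexes, and Ddit4 encodes REDD1, which acts through the TSC complex and also answers to hypoxia and glucocorticoids. Sesn2 (ENSMUSG00000028893, chromosome 4, 132492032 to 132510501, minus strand) stood at 11.3, 17.8, 13.0, 14.5 and 16.0 CPM in Mettl3 KO and 30.2, 21.0, 25.9, 23.2 and 23.8 CPM in Mettl14 KO, against 12.2, 12.4, 13.3, 29.8 and 43.9 CPM in control KO tumors. Every Mettl3 KO library lay below every Mettl14 KO library, while the controls fell on both sides of the Mettl14 KO libraries. Sesn2 had a log2 fold change of -0.70 (edgeR adjusted p = 0.192, SE 0.36) in Mettl3 KO and 0.11 (edgeR adjusted p = 0.987, SE 0.33) in Mettl14 KO tumors. Ddit4 (ENSMUSG00000020108, chromosome 10, 59949669 to 59951834, minus strand) stood at 5.97, 17.8, 9.19, 16.8 and 14.3 CPM in Mettl3 KO and 20.0, 12.2, 11.1, 19.1 and 19.5 CPM in Mettl14 KO, against 18.2, 10.5, 16.3, 17.0 and 30.3 CPM in control KO tumors. The 3 groups overlapped over most of their range. Ddit4 had a log2 fold change of -0.61 (edgeR adjusted p = 0.214, SE 0.33) in Mettl3 KO and -0.22 (edgeR adjusted p = 0.890, SE 0.27) in Mettl14 KO tumors. Its lowest value rests on 26 reads in Mettl3 KO replicate 1, the fewest of any of the 10 genes in any library.

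Groups of 5 against 5 were without overlap for 3.44% of all genes in the Mettl3 KO comparison and for 0 of the 10. For 9 of the 10 genes all 5 Mettl3 KO libraries lay below the control mean, and for Slc7a11 4 of 5 did. The share of all genes with this pattern was not counted. Control KO replicates 4 and 5, the highest controls for most of the 10, raise that mean. The low values of a few controls and the high values of others both bear on these fold changes. Without control KO replicate 1, edgeR called 11625 of 22535 genes (51.6%), and 4 of the 10, namely Phgdh at -0.92, Trib3 at -0.99, Psat1 at -0.64 and Asns at -0.67, had adjusted p-values of 0.0124, 0.0260, 0.0258 and 0.0283 in that order. With that library left out the 10 genes had a median of -0.20 relative to genes of like abundance, and 8 of the 10 were below 0. Without control KO replicate 5, which was the highest control for all 10 genes, the log2 fold changes of the 10 lay between -0.57 for Phgdh and -0.12 for Slc7a11, with 0 of the 10 called. The authors' deposited table for Mettl3 KO gives no adjusted p under 0.05 for the 10 genes and a negative log2 fold change for each, the lowest adjusted p being 0.0637 for Trib3 at -0.99 (SE 0.38).

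Between Mettl14 KO and control KO tumors no difference in these genes passed the test, and the fitted values lay between -0.39 for Phgdh and 0.19 for Slc7a11. EdgeR called 0 of 21555 genes (0%) between Mettl14 KO and control KO tumors, with 2444 at an unadjusted p under 0.05, and DESeq2 called 505. Of the 10 genes, 0 were called by edgeR or DESeq2 and 0 had an unadjusted p under 0.05, and 8 had a log2 fold change below 0, of which Atf4, Ddit3 and Chac1 were above 0 with library totals as the scaling. The median of the 10 was -0.17, against -0.09 over all genes, of which 60.8% had a value below 0. No gene of the 10 had groups without overlap, as 1.38% of all genes did. The 95% interval of the difference ran from -1.03 to 0.25 for Phgdh and from -0.62 to 0.84 for Sesn2, and both include 0. The authors' deposited table for Mettl14 KO likewise gives 0 of the 10 with an adjusted p under 0.05 and 8 below 0.

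Set against each other in 1 fit over the 15 libraries, Mettl3 KO tumors had lower levels than Mettl14 KO tumors for all 10 genes, and again none passed the test. Over all genes tested, 50.7% had a value below 0. EdgeR called 0 of 24566 genes (0%) between the knockouts, with 3152 at an unadjusted p under 0.05, and DESeq2 called 68 genes but 0 of the 10. The median of the 10 was -0.53 on the log2 scale, against -0.01 over all genes and -0.18 relative to genes of like abundance, and 4 of the 10 had an unadjusted p under 0.05. Sesn2 averaged 14.5 ± 2.56 CPM in the 5 Mettl3 KO libraries against 24.8 ± 3.49 CPM in the 5 Mettl14 KO libraries (SD), which is -0.76 on the log2 scale (edgeR adjusted p = 0.349, SE 0.31). It was the only one of the 10 without overlap between the knockouts, as were 3.52% of all genes. Trib3 averaged 15.6 ± 5.98 CPM in the 5 Mettl3 KO libraries against 27.7 ± 9.17 CPM in the 5 Mettl14 KO libraries (SD), or -0.82 (edgeR adjusted p = 0.349, SE 0.35). For Psat1 the difference of -0.37 (SE 0.27) was close to the median of genes of like abundance, at -0.38. The comparisons of the knockouts with control KO tumors share the same 5 control libraries, so the negative values in both are not separate observations.

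**Figure D2:**
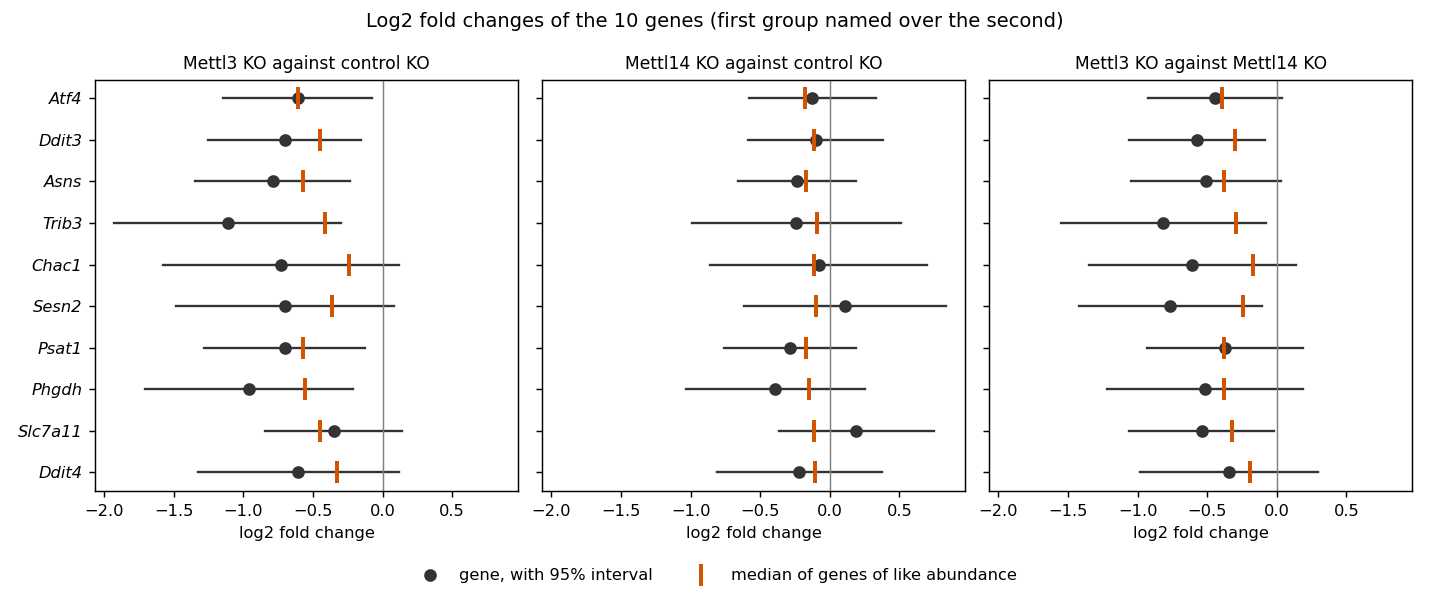
Log2 fold changes of the 10 genes (horizontal axes) in the 3 comparisons, with points for the fitted value, lines for its 95% interval and orange bars for the median of genes of like abundance. All points of the Mettl3 KO panels lie left of 0, from -1.11 for Trib3 to -0.35 for Slc7a11 against control KO tumors, and in the Mettl14 KO panel every interval crosses 0.

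Per kilobase of exon the 10 genes kept nearly the same order in every group. Atf4 came first, at 96.3 ± 23.1 RPKM in Mettl3 KO, 131 ± 19.5 RPKM in Mettl14 KO and 139 ± 49.9 RPKM in control KO tumors (SD, n = 5 each). Asns, Phgdh, Psat1, Ddit3 and Trib3 followed in that order in all 3 groups, with Asns at 56.5 RPKM, Phgdh at 39.7 RPKM, Psat1 at 34.8 RPKM, Ddit3 at 16.7 RPKM and Trib3 at 7.33 RPKM in Mettl3 KO tumors. Sesn2 and Slc7a11 came last in each group, Slc7a11 at 2.39 RPKM in Mettl3 KO, 3.47 RPKM in Mettl14 KO and 2.93 RPKM in control KO tumors. Ddit4 and Chac1 held the places between them, in the opposite order in Mettl14 KO tumors. In control KO tumors the step between Psat1 and Ddit3 was the sole one between neighbours where the means ± SD did not overlap. Lengths were those of all annotated exons together, and with the longest transcript instead 13 of the 30 levels moved by more than 1 SD, and Psat1 came before Phgdh in Mettl3 KO tumors, at 56.6 RPKM for Psat1 and 52.1 RPKM for Phgdh.

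Most of the 10 genes varied together between tumors of the same group, Slc7a11 least. After the mean of each group was taken away from log2(CPM + 1), 42 of 45 gene pairs had a positive Pearson r over the 15 libraries and 22 had an r above 0.7, with a median of 0.695. Chac1 and Sesn2 were the closest pair at 0.942, and Psat1 with Phgdh stood at 0.940 and Asns with Psat1 at 0.936. Trib3 was close to Ddit3, Chac1 and Sesn2, the 3 synthesis enzymes were close to each other, and Atf4 was close to both sets. The sets were not separate, as Phgdh had an r of 0.838 to Trib3 and 0.705 to Ddit3. Slc7a11 followed the rest least, with an r of 0.168 to the mean of the other 9, where Atf4 had 0.960, Trib3 0.938, Chac1 0.908 and Ddit4 0.639. The libraries that set this range were control KO replicate 5 at the high end, 1.47 SD units above its group, and Mettl3 KO replicate 1 at the low end, 0.950 SD units under its group. Without the 2 libraries farthest from the median, control KO replicate 5 and Mettl3 KO replicate 2, the median r over pairs was 0.552 and 40 of 45 were positive. In that setting Slc7a11 had an r of -0.047 to the mean of the other 9. Pairs of other genes were not counted, but over the 15 libraries 9523 other genes had a median r of 0.483 to the mean of the 10. Part of this variation was therefore shared with other genes, and whether the 10 vary together more than other sets was not tested. With the share of reads outside genes also removed, the median r of the other genes was 0.210. The points of a library share its depth and its share of reads outside genes, so the values are descriptions and carry no test.

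**Figure D3:**
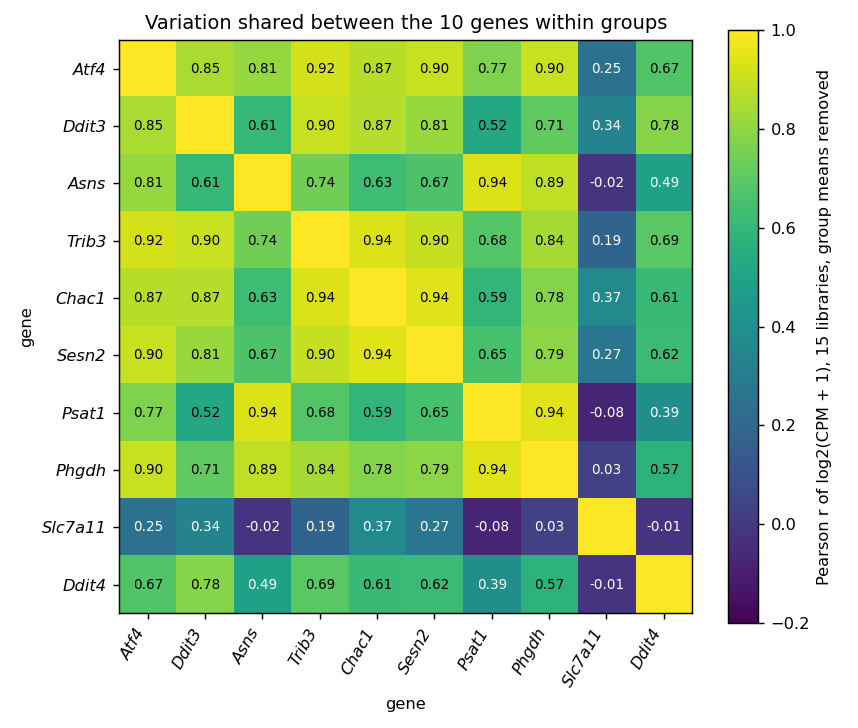
Pearson r between each pair of the 10 genes over the 15 libraries, computed on log2(CPM + 1) after removing group means (colour scale from -0.2 to 1). Slc7a11 forms the dark row and column, with an r of -0.08 to Psat1, and Ddit4 is the next least tied gene.

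Among 9523 other genes with a mean of at least 10 CPM, the 5 that followed the mean of the 10 most closely within groups over the 15 libraries were Eif4ebp1 at an r of 0.969, Slc6a9 at 0.964, Josd2 at 0.960, Cyb5r1 at 0.953 and Arhgef10 at 0.951. Eif4ebp1 encodes 4E-BP1, a repressor of cap-dependent translation, and Slc6a9 is a glycine transporter. Eif4ebp1 stayed among the 5 closest without control KO replicate 1, without the 2 farthest libraries and after the share of reads outside genes was also removed. Slc6a9 and Cyb5r1 left the 5 in all of these settings, though Slc6a9 still ranked 6, 7 and 6 among the candidates. Amino acid transporters as a list had a median r of 0.889 over 7 genes and amino acid synthesis genes one of 0.869 over 10, against 0.483 over all candidates. Glucocorticoid genes had a median r of 0.794 over 5 genes, GATOR and mTORC1 genes one of 0.759 over 13 and erythroid markers one of 0.587 over 3, so lists outside amino acid supply were above the median of all candidates too. Hypoxia genes had a median r of 0.172 over 5 genes, and macrophage markers one of 0.125 over 6.

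The share of reads outside genes moved with several of the 10 genes within groups. Its Pearson r over the 15 libraries was -0.788 with Psat1, -0.777 with Phgdh, -0.648 with Asns and -0.605 with Atf4, but -0.204 with Ddit3, -0.170 with Ddit4 and 0.0846 with Slc7a11. Sesn2, Trib3 and Chac1 lay between these, at -0.467, -0.464 and -0.402. The synthesis enzymes were thus low where many reads fell outside genes, and the genes of CHOP, REDD1 and the cystine exchanger followed that share least. Control KO replicate 1 is in all of these values, which were not computed without it. With that share as a covariate, the median log2 fold change of the 10 genes in Mettl3 KO against control KO tumors was -0.41, where it was -0.70 without the covariate. With that share also removed, the median r over pairs was 0.690, and the r to the mean of the other 9 was 0.679 for Asns and 0.627 for Psat1, where it was 0.776 and 0.721 before. The part of this share in the group differences was not tested.

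**Figure D4:**
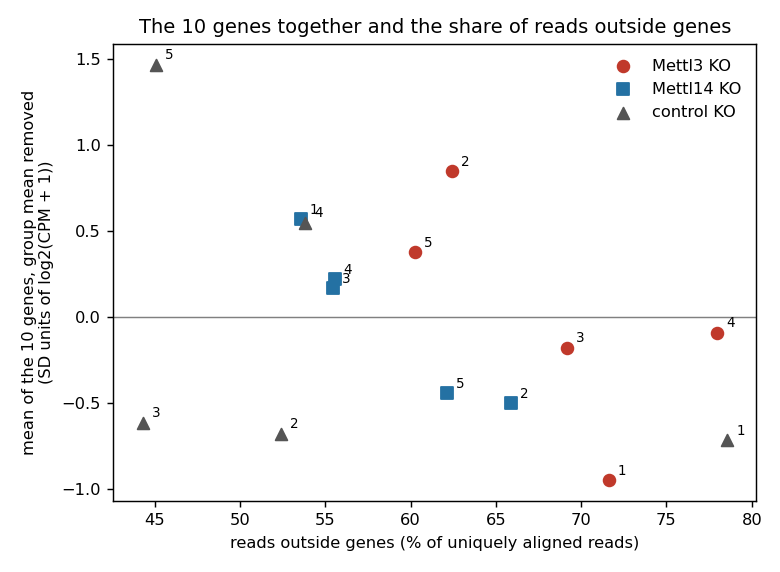
Mean of the 10 genes in each library (vertical axis, SD units of log2(CPM + 1), group mean removed) against the share of uniquely aligned reads outside genes (horizontal axis, percent), numbered by replicate. Control KO replicate 5 lies at the top left with 45.1% of reads outside genes and control KO replicate 1 at the lower right with 78.6%, while control KO replicates 2 and 3 are low at small shares.

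Sums of marker genes for other cell types moved with the groups too. The 6 T cell markers summed to 43.7 to 134 CPM in Mettl3 KO and 25.2 to 214 CPM in Mettl14 KO, against 9.72 to 34.8 CPM in control KO tumors, with 0 of 6 called by edgeR and 6 at an unadjusted p under 0.05 in the Mettl3 KO comparison. The 3 erythroid markers summed to 18.9 to 53.1 CPM in Mettl3 KO and 24.9 to 51.5 CPM in Mettl14 KO, against 55.3 to 250.2 CPM in control KO tumors, and 2 of 3 fell in Mettl3 KO tumors. The 5 epithelial markers summed to 48.7 to 109 CPM in Mettl3 KO and 74.3 to 164 CPM in Mettl14 KO, against 178 to 237 CPM in control KO tumors, and Krt20 fell in Mettl3 KO tumors (log2 fold change -1.76, edgeR adjusted p = 0.0217). Krt20 makes up most of that sum, and 3 of the 5 epithelial markers had values above 0 in the same comparison, with a list median of 0.40. Macrophage markers overlapped, with sums of 989.9 to 2553 CPM in Mettl3 KO and 1477 to 4049 CPM in Mettl14 KO, against 1039.8 to 2169.9 CPM in control KO tumors. Skeletal muscle markers summed to 20.9 to 626 CPM in Mettl3 KO and 3.12 to 29.5 CPM in Mettl14 KO, against 20.5 to 262 CPM in control KO tumors. The part of these cell types in the levels of the 10 genes was not tested.

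The rest of the pathway was read through 11 lists. Of 14 kinases, phosphatases and exchange factors around eIF2alpha, 1 fell in Mettl3 KO against control KO tumors and 13 had values below 0, with a median of -0.48. That gene was Eif2b3, a subunit of the exchange factor eIF2B on which the stress kinases converge, with 30.3 ± 5.56 CPM in the 5 Mettl3 KO libraries against 47.6 ± 6.25 CPM in the 5 control KO libraries (SD; log2 fold change -0.71, SE 0.15, edgeR adjusted p = 0.0484). Relative to genes of like abundance the median of this list was -0.00. Amino acid transporters, 0 of 9 called, had a median of -0.65, with Slc38a2 at -0.86 and Slc1a4 at -0.93. Genes of serine, glycine and other amino acid synthesis, 0 of 12 called, had a median of -0.64, with Mthfd1l, of mitochondrial folate metabolism, at -0.77 and Psph, the last step of serine synthesis, at -0.59. Relative to genes of like abundance the medians of these 2 lists were -0.25 and -0.17.

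Atf3, another stress-induced factor of the ATF family, went the other way from the 10 genes. Atf3 stood at 17.0, 6.49, 9.0, 12.4 and 6.74 CPM in Mettl3 KO and 11.8, 11.7, 8.36, 22.4 and 7.72 CPM in Mettl14 KO, against 4.87, 3.19, 3.42, 3.97 and 3.83 CPM in control KO tumors. Every library of both knockouts lay above every control. Its log2 fold change was 1.37 (edgeR adjusted p = 0.0524, SE 0.33) in Mettl3 KO and 1.63 (edgeR adjusted p = 0.130, SE 0.29) in Mettl14 KO tumors, so neither passed the test. Its list, 10 ATF4 partners and target regulators of which 0 were called in Mettl3 KO tumors, had a median of -0.50, with Herpud1 at -0.79. Relative to genes of like abundance the median of that list was -0.03. Sesn3, a relative of Sesn2, had a value of 1.23 and Trib1, a relative of Trib3, one of -0.64 in Mettl3 KO tumors, and neither passed the test, nor did any other of the 6 relatives.

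Other stress programs gave a handful of calls in Mettl3 KO against control KO tumors. In the glucocorticoid list, with a median of -0.91, 3 of 6 fell. They were Klf9 at -1.02, Fkbp5 at -1.36 and Tsc22d3 at -1.48, with edgeR adjusted p of 0.0375, 0.0465 and 0.0478 in that order. In the p53 list 2 of 8 fell, Zmat3 at -1.07 (edgeR adjusted p = 0.0266) and Eda2r at -1.05 (edgeR adjusted p = 0.0271). Of 10 endoplasmic reticulum chaperones and cofactors 1 fell, Dnajb9 at -1.30 (edgeR adjusted p = 0.0321), a target of the IRE1 branch of the unfolded protein response. Whether these list calls hold in the alternative fits was not checked. The lists of NRF2 targets, hypoxia genes and GATOR and mTORC1 genes had 0 called of 10, 9 and 15, with 4, 1 and 4 at an unadjusted p under 0.05 and medians of -0.33, -0.12 and -0.38. Relative to genes of like abundance these 3 medians were 0.15, 0.01 and 0.03. On that scale the glucocorticoid, p53 and chaperone lists had medians of -0.44, -0.41 and -0.01, where the 10 genes had -0.27. In Mettl14 KO against control KO tumors 0 genes of any list were called. There the hypoxia list had a median of 0.56 and 5 of 9 genes at an unadjusted p under 0.05, while the 10 genes had a median of -0.17.

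**Figure D5:**
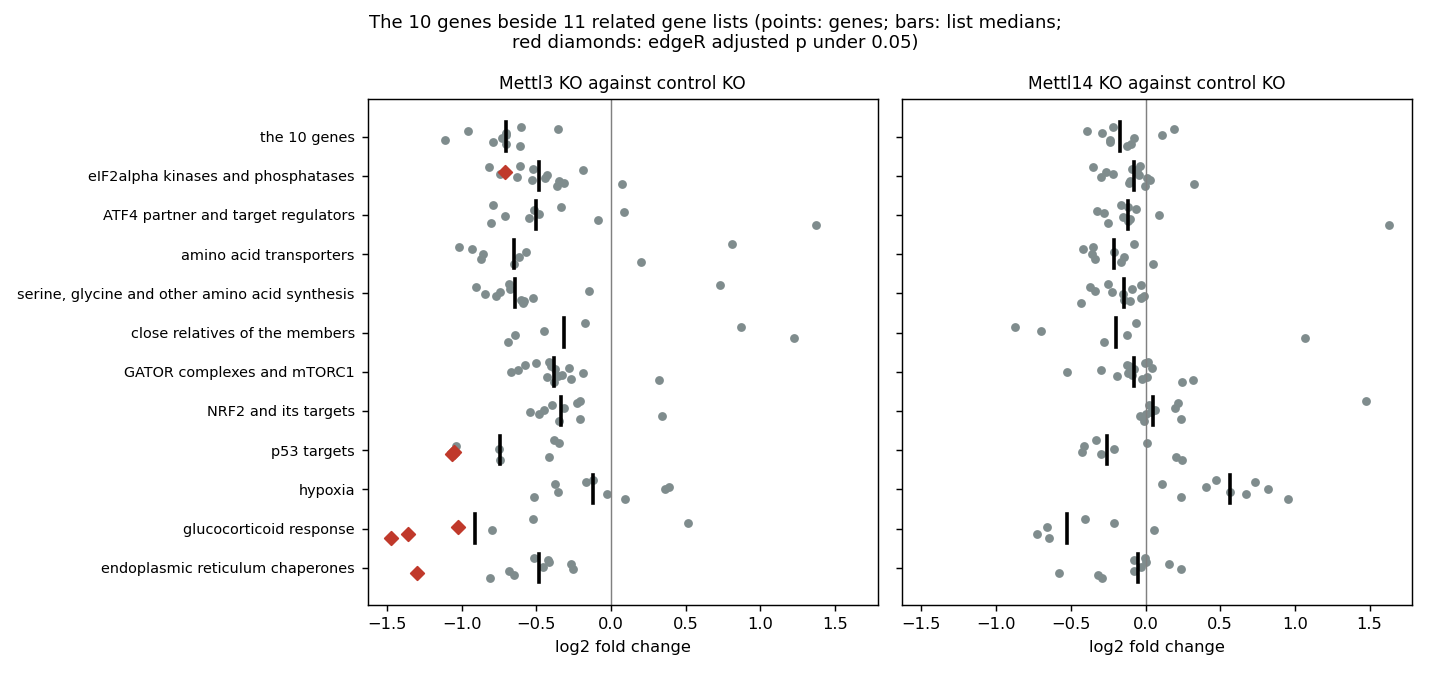
Log2 fold change of every tested gene (points) in the 10 genes and 11 related lists, in Mettl3 KO against control KO tumors (left) and Mettl14 KO against control KO tumors (right), with bars at list medians and red diamonds for genes with an edgeR adjusted p under 0.05. The 7 diamonds are in the left panel, in the lists of eIF2alpha, p53, glucocorticoid and chaperone genes, and none belongs to the 10 genes.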

How the data were processed

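RNA-seq of 15 CT26 tumors, 5 per group, was analysed, grouped and numbered by title. Mettl14 samples carry the genotype entry Mettl4, but their titles, their count table and the design text say Mettl14, which was used. The deposited values are unnormalized counts for each Ensembl gene, made by the authors from single-end reads of 75 nt with cutadapt 1.18, HISAT2 2.1.0 and HTSeq 0.11.2 on mm10, per the submitters' processing notes. Neither annotation release nor strand setting was stated there. The control columns were identical in both tables and were used once. Lines that name no gene held 56.8% to 86.2% of reads and were left out. Per the file headers, the authors also deposited a mean normalized signal, log2 fold changes and their errors, a test score and p-values, under column names that DESeq2 writes. Of 54752 IDs, 54723 matched a symbol.

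The counts as deposited were tested with edgeR 4.0.16 (R 4.3.3), by quasi-likelihood with TMM scaling, after filterByExpr at a minimum count of 10, with Benjamini-Hochberg adjustment at 0.05 over all genes tested. The knockouts were compared with each other in 1 fit over the 15 libraries. DESeq2 1.42.0, other scalings, no filter, a replicate block, a covariate and leaving out each library were alternatives. Genes of like abundance were 50 bins by mean level. Exon lengths came from GENCODE M21. The fit was tested on data simulated with the spread estimated from these libraries, with each gene drawn independently. Variation shared by the genes of a library was not simulated, so false calls under it were not measured. For Mettl3 KO against control KO it recovered 33 of 91 genes changed 2-fold and 55 of 87 changed 4-fold. For Mettl14 KO against control KO it recovered 33 of 94 and 56 of 86, with 3 false calls in each comparison. A gene that was not called may thus still differ. All 30 pairs of replicates within groups differed beyond counting noise. The labels give no batch. The lists were the 10 genes, 11 pathway lists and 10 marker lists. Genes named beside the 10 were those called in a list (at most 4), otherwise the 2 with the smallest p, the 5 closest by correlation, and Mettl3 and Mettl14. The members and lists were chosen with earlier results of these data known.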

Additional observations from a re-analysis of the deposited data

Results flagged for a closer look

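Control KO replicate 1 had 78.6% of its uniquely aligned reads outside genes, far above the other 4 control KO libraries at 44.3% to 53.8%. The gap to its nearest neighbour was 0.722 of the range of the group, over Dixon's limit of 0.71 for 5 samples. Of 36 groups of 5 values examined this way it was the only one past the limit, and chance passes about 5%. Its part in the levels of the 10 genes was not tested beyond the values given without it.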

How the results depend on the processing

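In Mettl3 KO against control KO tumors the number of genes called, 266, was 100 with RLE scaling, 122 with library totals, 62 without the filter on low counts, 2700 with DESeq2, 55 with the share of reads outside genes as a covariate and 42 with all 15 libraries in 1 fit, and it ran from 35 to 11625 when each library was left out, the highest without control KO replicate 1 and all others at 65 or fewer. The number of the 10 genes called was 3 with DESeq2 and 0 to 4 when a library was left out. In Mettl14 KO against control KO tumors the number of genes called was 47 without the filter, 505 with DESeq2 and 50 with all 15 libraries in 1 fit, and 0 to 1054 when each library was left out, with 1054 without control KO replicate 1, 148 without Mettl14 KO replicate 5 and 6 without control KO replicate 2. Between the knockouts it was 68 with DESeq2 and 0 to 1 when a library was left out, the 1 without Mettl3 KO replicate 2. No alternative turned the direction of any of the 10 genes in the comparisons that hold Mettl3 KO tumors, 170 values against control KO and 220 against Mettl14 KO. Of 170 values in Mettl14 KO against control KO tumors 16 changed sign. With library totals Atf4 was at 0.0303, Ddit3 at 0.0506 and Chac1 at 0.0584, and with the covariate Chac1 was at 0.0511. When each library was left out, Atf4 ran from -0.21 to 0.0902, Ddit3 from -0.20 to 0.12, Trib3 from -0.46 to 0.18, Chac1 from -0.24 to 0.27, Sesn2 from -0.0276 to 0.50, Ddit4 from -0.34 to 0.0276 and Slc7a11 from -0.0145 to 0.35. Over all genes of the Mettl3 KO comparison the median, -0.14 on the log2 scale, was 0.02 with library totals, -0.05 with RLE scaling and 0.57 without the filter. The causes were not tested.

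No pairing by replicate number was used in the main fits, since the labels do not say what the numbers mark. Deviations of same-numbered libraries correlated at -0.36 to 0.61, -0.74 to 0.25 and -0.69 to -0.06 in the 3 comparisons, in the order of the report. With the replicate block 6002 of 21427 genes and 4 of the 10, Atf4, Asns, Psat1 and Phgdh, were called in the Mettl3 KO comparison, 14 genes in Mettl14 KO against control KO tumors, where Chac1 was at 0.11, and 0 between the knockouts. Depth limits the low genes most, as 3 reads are 0.689 CPM in Mettl3 KO replicate 1, the highest such value of the 15 libraries. They are 0.487 CPM in control KO replicate 1. The 2 settings of the correlations other than leaving out control KO replicate 1 were chosen after seeing the data.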
